A study of Mus musculus with 12 samples.

Results

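Fibronectin (Fn1), tenascin-C (Tnc), the thrombospondins (Thbs1, Thbs2, Thbs3 and Thbs4), periostin (Postn), SPARC (Sparc) and tetranectin (Clec3b) are secreted adhesive and matricellular glycoproteins of the extracellular matrix. Their 9 genes were followed in mRNA from primary mouse chondrocytes, the cells that make and maintain cartilage. The genes are taken by their symbols, as a set picked with earlier results of these data known, and make up 9 of the 57010 Ensembl gene IDs in the count tables. The 12 libraries fall into 3 labelled groups of 4: Control, WT and SIRT5F101L. All 12 carry the genotype label "Wild type". Per the labels, cells were transfected with a wild-type plasmid or a SIRT5F101L mutant plasmid, and the WT group is read here as the wild-type plasmid. SIRT5 is a sirtuin of mitochondria and cytosol that strips malonyl, succinyl and glutaryl groups off lysines in proteins. What the Control cells received, the promoter and species of the plasmid insert, the strain and age of the mice, and whether the 4 libraries of a group came from separate cultures or animals are not given in the sources used here. The p-values therefore measure the spread between these libraries, which may be technical.

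Fibronectin is secreted as a dimer and pulled into fibrils by integrins on the cell surface, and many other matrix proteins are laid down on those fibrils. Tenascin-C, the thrombospondins, periostin and SPARC are called matricellular because they tune how cells attach to the matrix and how collagen is assembled more than they bear load themselves. In cartilage, raised fibronectin, tenascin-C and thrombospondin-1 are known from injured and osteoarthritic tissue, while periostin and tetranectin are better known from fibrous and mineralising tissues.

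Of the 9 genes, 8 had enough counts to be tested and 7 of these were lower in both plasmid groups than in Control, where 28.1% (WT) and 30.7% (SIRT5F101L) of all genes tested were called lower. Postn fell 13.0-fold in WT and 9.91-fold in SIRT5F101L, and Clec3b fell 57.3-fold and 49.0-fold. Fn1, Thbs1, Thbs2, Thbs4 and Sparc fell by smaller factors of 1.78 to 3.66. Tnc was not called in either comparison, with log2 fold changes of 0.02 and 0.00. Thbs3 was listed at 0 in all 12 libraries. No gene of the set passed the threshold between SIRT5F101L and WT.

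The promoters of the 2 called genes with the largest falls among those with a promoter entry are shown beside that of Tnc, the tested gene that was not called. Each run holds the 250 bases before a RefSeq start site of the GRCm38.p6 build, 5′ to 3′ on the gene's strand. Capitals mark TATAAA (the TATA box, here searched as exact letters) and CAGACA (a SMAD element) on either strand, so that TTTATA and TGTCTG are the same motifs on the other strand.
Postn, chr3:54360857-54361106, plus strand: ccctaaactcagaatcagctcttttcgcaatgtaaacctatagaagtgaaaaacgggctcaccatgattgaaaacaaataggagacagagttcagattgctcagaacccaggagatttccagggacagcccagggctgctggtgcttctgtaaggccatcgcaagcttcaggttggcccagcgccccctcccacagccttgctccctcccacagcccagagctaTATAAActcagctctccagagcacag
Thbs2, chr17:14694263-14694512, minus strand: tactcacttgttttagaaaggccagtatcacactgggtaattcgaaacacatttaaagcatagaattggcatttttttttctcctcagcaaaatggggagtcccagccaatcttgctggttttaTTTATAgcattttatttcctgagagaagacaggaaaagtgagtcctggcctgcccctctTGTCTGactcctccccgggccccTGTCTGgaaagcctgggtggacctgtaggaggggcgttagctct
Tnc, chr4:64046937-64047186, minus strand: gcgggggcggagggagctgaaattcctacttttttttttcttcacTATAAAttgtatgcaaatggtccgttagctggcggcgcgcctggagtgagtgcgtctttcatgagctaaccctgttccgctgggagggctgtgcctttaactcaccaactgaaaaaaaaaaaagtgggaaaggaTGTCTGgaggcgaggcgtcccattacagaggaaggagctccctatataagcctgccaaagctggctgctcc

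In the Postn window the first letter of TATAAA stood at position -26 from the start site, the place where a TATA box is usually found. In Thbs2 the TATA letters stood at -126, and in this Tnc window at -205. The same Tnc letters stand at -126 from the other Tnc start, and the window shown is the one whose 250 bases hold both motifs. The search takes exact letters only: the Tnc run also holds the unmarked letters tatataag shortly before the start site. The RefSeq table held 8 windows of 300 bases (250 before and 50 after the start) for 6 of the 9 genes, with 2 each for Postn and Tnc. The Postn window shown is the one that holds TATAAA, and the other Postn window held none of the motifs searched. No promoter is shown for Fn1, Thbs1 or Clec3b. TATAAA was present in 4 of the 8 windows, against 13.6% of all 32851 windows. CAGACA was present in 5 of the 8, in Tnc, Sparc, Thbs4 and Thbs2, against 21.0% of all windows. The 2 Tnc windows overlap, so that the same TATAAA and the same TGTCTG are counted in both. None of the 8 windows held the AP-1 letters TGANTCA, found in 7.81% of all windows, or the NF-kappaB motif, found in 0.411%. The CArG box, its second form CCATTAGG and the SMAD palindrome GTCTAGAC were also absent from the 8, and stood in 0.609%, 0.56% and 0.213% of all windows. A match of letters does not show binding, and an absence says only that these letters are not in the window.

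The libraries held 15095357 to 24242139 counts, and 14253 genes passed the filter on low counts. IDs placed on the X chromosome, the Y chromosome and the mitochondrial genome were all listed at 0. No library repeated another: at least 19708 IDs differed between any 2. CPM below is a library's count scaled to library size by the TMM method. The slope of a library's log2 CPM against log2 length of the transcript ran from 0.579 to 0.601 in Control and from 0.609 to 0.697 in WT. In SIRT5F101L it ran from 0.726 to 0.748 in replicates 2, 3 and 4, but was 0.586 in replicate 1, which stands apart from its group. Sirt5 itself had 1 to 19 counts per library, with 0.688 ± 0.169, 0.384 ± 0.229 and 0.721 ± 0.346 CPM (SD, n = 4 each) in Control, WT and SIRT5F101L. These levels do not show the plasmids: the edgeR adjusted p was 0.143 for WT and 0.954 for SIRT5F101L against Control, and whether reads from the inserts could be counted under the mouse gene is not stated.

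The label of the cells was set beside the defining markers. Chondrocyte markers were all present, and their 14 genes summed to 9340 to 11708 CPM in Control, 2855 to 2969 in WT and 2324 to 2569 in SIRT5F101L. Markers of fibroblasts and synovial lining cells, among them the collagen genes Col1a1, Col1a2 and Col3a1, summed to more: 31486.5 to 37553 CPM in Control, 12569.5 to 14021 in WT and 12769.6 to 13879.9 in SIRT5F101L. Most of the Control sum came from these collagen genes, at means of 12698.5, 14252.5 and 6481 CPM. The sums are not scaled by transcript length and do not give shares of cells. The counts of called markers below stand beside the shares of all genes tested. These were 28.1% lower and 28.7% higher in WT, and 30.7% lower and 30% higher in SIRT5F101L. Of the 14 chondrocyte markers, 12 were lower and 2 higher in WT, and 12 were lower and 1 higher in SIRT5F101L. Of the 9 fibroblast markers, 6 were lower and 3 higher in each. Smooth muscle and pericyte markers summed to 1048 to 1131 CPM in Control, 635 to 716 in WT and 564 to 639 in SIRT5F101L. Of these 5, Acta2, Myh11 and Des were lower and Cspg4 higher in both, and Rgs5 was called higher in SIRT5F101L (0.51 on the log2 scale) and not called in WT (-0.01). The Rgs5 call was lost with the length slope as a covariate (0.36). Macrophage and leukocyte markers summed to 167 to 199.5 CPM in Control, 129 to 148 in WT and 139 to 177 in SIRT5F101L, with Itgam at 0, and of 7 tested 6 were lower and 1 higher in each comparison. Osteoblast markers summed to 62.9 to 72.8 CPM in Control, 40.9 to 52.5 in WT and 39.5 to 61.6 in SIRT5F101L. Of 5 tested, 3 were lower and 0 higher in each: Sp7, Ibsp and Bglap2. Ibsp, bone sialoprotein, stood at 14.7 CPM in Control and at 0.284 and 0.146 CPM in WT and SIRT5F101L, the latter near the 3-count floor. Endothelial markers summed to 3.65 to 4.53, 2.66 to 3.91 and 3.17 to 3.97 CPM in the 3 groups, and 0 of 4 tested were called. Tendon markers summed to 19.6 to 21.9, 22.4 to 27.9 and 23.0 to 27.0 CPM, with Tnmd and Scx at 0 and the 1 tested gene, Mkx, higher in both (0.26 and 0.31 on the log2 scale); the WT call was lost without Control replicate 2 (0.23), without WT replicate 1 (0.18) and with upper-quartile scaling (0.20), and both calls with the length slope as a covariate (0.16 and 0.12). The glycoproteins studied here are made by chondrocytes and fibroblasts alike. In bulk RNA, fewer cells of a type and less RNA per cell cannot be told apart, and the part of these marker shifts in the falls below was not tested.

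Levels of different genes were set side by side per length of the longest annotated transcript, as CPM per kilobase. In Control, Sparc stood highest at 4622 ± 194 (SD, n = 4), followed by Fn1 at 4062 ± 457, and their ranges overlapped. Thbs1 came next at 2831 ± 248, far above its closest relative Thbs2 at 159.6 ± 10.2. Clec3b followed at 116 ± 7.30, and Postn, Tnc and Thbs4 closed the order at 46.6 ± 2.35, 38.7 ± 5.08 and 33.8 ± 2.33. Postn overlapped Tnc and Tnc overlapped Thbs4, so the order within the last 3 lay within the spread between libraries except for Postn above Thbs4.

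The order differed in the plasmid groups. Fn1 came first at 2118 ± 199 CPM per kilobase in WT and 2283 ± 265 in SIRT5F101L, above Sparc at 1737 ± 91.9 and 1660.1 ± 64.8, and the ranges of the pair no longer met. Thbs1 was again next at 1119 ± 98.2 and 1125 ± 101. Thbs2, at 43.6 ± 1.81 and 47.8 ± 1.24, stood next to Tnc at 39.3 ± 3.11 and 38.8 ± 3.12, with ranges that overlapped in WT and did not in SIRT5F101L. Thbs4 followed at 18.7 ± 0.586 and 17.4 ± 1.11. Postn, at 3.58 ± 0.302 and 4.72 ± 0.471, and Clec3b, at 2.03 ± 0.243 and 2.32 ± 0.374, moved to the end of the order. With the median transcript length in place of the longest, 4 of the 8 genes kept their place in the Control order and Fn1 stood above Sparc.

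**Figure D1:**
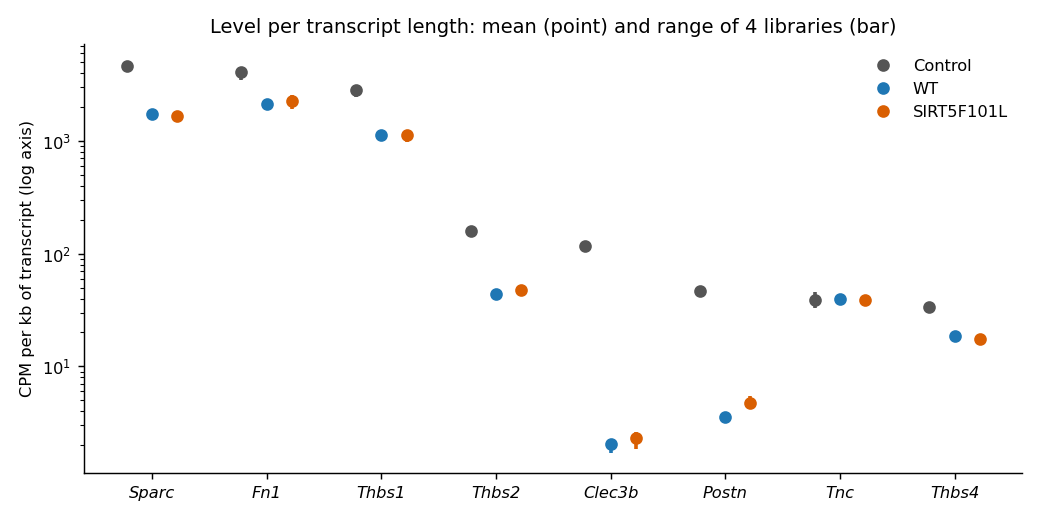
CPM per kilobase of the longest transcript (log axis) for the 8 detected genes in Control, WT and SIRT5F101L; points are means of 4 libraries and bars run from the lowest to the highest library. Sparc and Fn1 lead in every group, Tnc stays near 39 in each, and Clec3b moves from 116 in Control to 2.03 in WT and 2.32 in SIRT5F101L.

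These genes took a large share of each library. In Control, the 9 genes held 5.45% to 6.42% of all counts. They held 2.62% to 3.14% in WT and 2.64% to 3.38% in SIRT5F101L, with no overlap with Control. Fn1 was the most counted ID in all 4 Control libraries, Thbs1 ranked 2 in all 4 and Sparc ranked 5. In the plasmid groups Fn1 ranked 1 or 2, Thbs1 ranked 3 to 5, and Sparc ranked 9 to 14 in WT and 13 to 16 in SIRT5F101L. CPM is itself a scaled share of a library's counts, and the closing section says whether the calls held under other scalings.

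WT and SIRT5F101L were each compared with the same 4 Control libraries, so the 2 comparisons are not independent. Because the treatment of the Control cells is not given, transfection itself and the plasmid inserts cannot be told apart in either comparison. In WT, 7 of the 8 tested genes were lower and 0 were higher than in Control, where 56.8% of all 14253 genes were called, 28.1% lower and 28.7% higher. In SIRT5F101L the count was again 7 lower and 0 higher of 8, where 60.7% of all genes were called, 30.7% lower and 30% higher. The median log2 fold change of the 8 genes was -1.38 in WT and -1.40 in SIRT5F101L, beside -0.01 and -0.02 over all genes tested. For the same 7 genes every plasmid library lay below every Control library, which held for 26.5% of all genes in WT and 25.7% in SIRT5F101L.

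**Figure D2:**
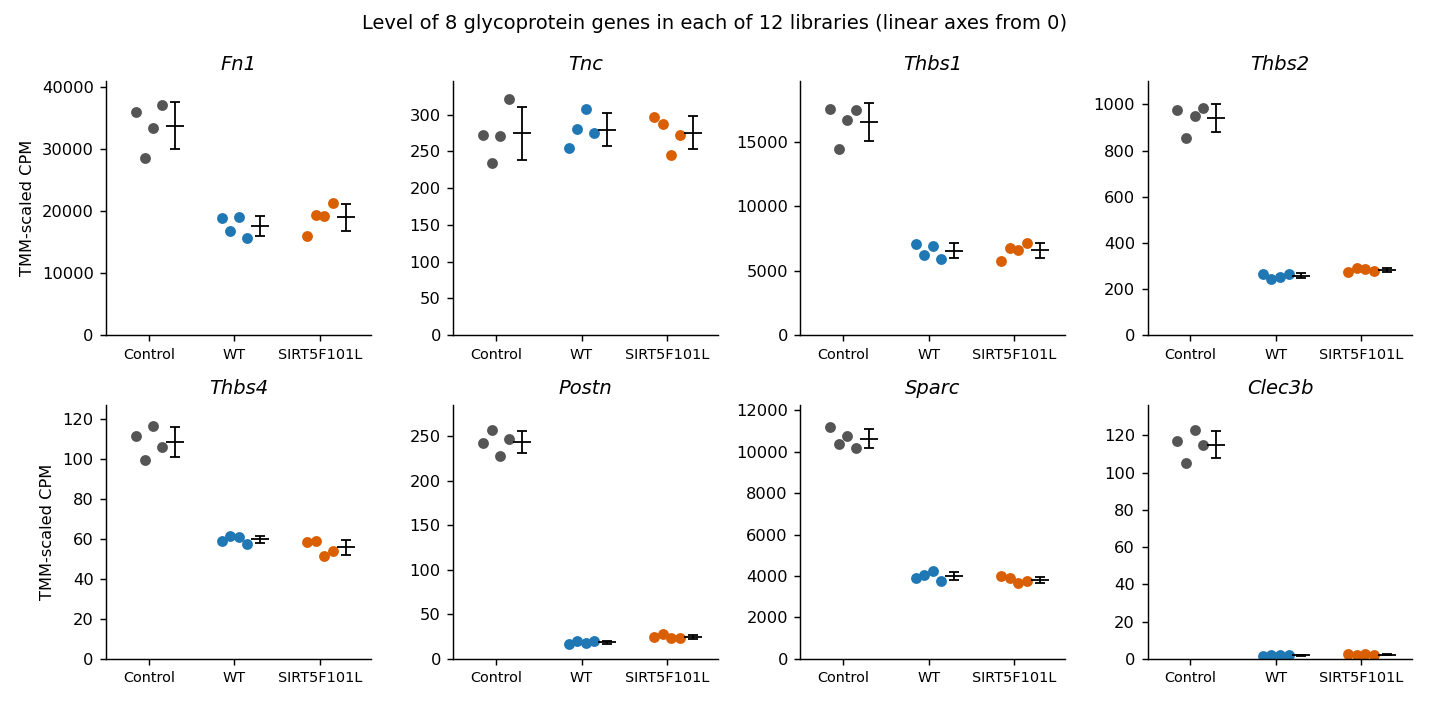
TMM-scaled CPM of the 8 detected genes in each of the 12 libraries (points), with the mean and SD of 4 libraries beside them, on linear axes from 0. In every panel but Tnc the 4 Control libraries lie above all 8 plasmid libraries. Clec3b sits at 105 to 123 in Control and at 1.68 to 2.62 in the plasmid groups.

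Fn1, the fibril-forming adhesive glycoprotein (ENSMUSG00000026193), stood at 36014, 28604, 33332 and 37135 CPM in Control replicates 1 to 4. In WT it stood at 18968, 16729.9, 19028 and 15717 CPM. In SIRT5F101L it stood at 15987, 19379, 19263 and 21305 CPM. Every plasmid library lay below the lowest Control library, replicate 2, while WT and SIRT5F101L overlapped. The means were 33772 ± 3796, 17611 ± 1655 and 18983 ± 2206 CPM (SD, n = 4 each). Against Control, Fn1 changed on the log2 scale by -0.94 (SE 0.10) in WT, with an adjusted p of 5.08e-08 by edgeR, and by -0.83 (SE 0.10, adjusted p = 2.71e-07) in SIRT5F101L, or 1.92-fold and 1.78-fold lower. The lowest SIRT5F101L library was replicate 1, the one whose length slope stood apart. With the length slope as a covariate the fall was as large or larger, at -1.07 and -1.10 on the log2 scale. In GENCODE M21, 2.499% of the exon bases of Fn1 overlap another gene, Apol7d, on the other strand, and the strand setting of the counting is not given in the sources used here.

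Thrombospondins are trimers or pentamers that bind calcium, collagen, integrins and proteases, and thrombospondin-1 is known as an activator of latent TGF-beta. Thbs1 (ENSMUSG00000040152) stood at 17561, 14456, 16734 and 17479 CPM in Control. It stood at 7090.5, 6222, 6957 and 5898 CPM in WT, and at 5760.4, 6769, 6622 and 7167 CPM in SIRT5F101L. The highest plasmid library, SIRT5F101L replicate 4, was under the lowest Control library, replicate 2, and the plasmid groups overlapped. In edgeR, Thbs1 changed by a log2 value of -1.34 in WT (SE 0.08, adjusted p = 2.92e-11) and -1.33 in SIRT5F101L (SE 0.08, adjusted p = 3.06e-11), which is 2.53-fold and 2.52-fold lower. As with Fn1, SIRT5F101L replicate 1 was the lowest of its group and Control replicate 2 the lowest of its own. On the other strand, 3.425% of its exon bases overlap Gm29233.

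Thbs2 (ENSMUSG00000023885), the closest relative of Thbs1 and a regulator of collagen fibril assembly, stood at 976, 853, 949.6 and 985 CPM in Control. In WT it stood at 266, 245, 250.3 and 266 CPM, and in SIRT5F101L at 273, 289, 286 and 279 CPM. The Control libraries were set apart by a wide gap, and each SIRT5F101L library lay slightly above each WT library. Thbs2 fell 3.66-fold in WT, a log2 fold change of -1.87 (SE 0.06, adjusted p by edgeR 6.95e-16), and 3.34-fold in SIRT5F101L, one of -1.74 (SE 0.06, adjusted p = 1.85e-15).

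Thbs4 (ENSMUSG00000021702), a pentameric thrombospondin of tendon and muscle, stood at 111, 99.2, 117 and 106 CPM in Control. It stood at 58.7, 61.6, 60.9 and 57.6 CPM in WT and at 58.2, 59.0, 51.6 and 53.7 CPM in SIRT5F101L. All 8 plasmid libraries were below all Control libraries, and the 2 plasmid groups overlapped. Thbs4 changed on the log2 scale by -0.86 (SE 0.07, adjusted p by edgeR 7.29e-10) in WT and -0.96 (SE 0.07, adjusted p = 1.21e-10) in SIRT5F101L, the smallest fall of the 7 in WT and the second smallest, after Fn1, in SIRT5F101L.

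Thbs3, another pentameric thrombospondin, had 0 counts in each of the 12 libraries and was not tested. A count of 0 allows up to 3 counts in a library, or 0.12375 to 0.19874 CPM before TMM scaling, counting error only. Its exons overlap those of Mtx1 on the other strand over 6.593% of their length, and Mtx1 had 342 to 577 counts per library. Some well-known genes on the lists used here, Plg, Htra1, Scx, Itgam and Tnmd, were also listed at 0 throughout. Whether Thbs3 is silent in these cells or was not counted was not tested, and the 0 is not read as absence.

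Periostin is a secreted protein of periosteum, ligament and other collagen-rich tissue that links collagen, fibronectin and tenascin. Postn (ENSMUSG00000027750) stood at 242, 257, 228 and 247 CPM in Control. It stood at 17.2, 19.9, 17.5 and 20.2 CPM in WT and at 24.1, 28.3, 23.0 and 23.2 CPM in SIRT5F101L. The 3 groups did not overlap, with Control far above and SIRT5F101L a little above WT. The means were 244 ± 12.3, 18.7 ± 1.58 and 24.6 ± 2.46 CPM (SD, n = 4 each), and the raw counts in the plasmid libraries were 303 to 574. On the log2 scale Postn changed by -3.70 in WT (SE 0.08, adjusted p by edgeR 1.92e-18) and -3.31 in SIRT5F101L (SE 0.08, adjusted p = 5.77e-18). Only 0.456% of the tested genes had a lower fold change than Postn in WT, and 0.617% in SIRT5F101L.

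SPARC, also called osteonectin, is a collagen chaperone that also binds calcium. Sparc (ENSMUSG00000018593) stood at 11196, 10394, 10755 and 10178 CPM in Control. It stood at 3883, 4056, 4263 and 3780.3 CPM in WT and at 3975, 3901, 3640.6 and 3757 CPM in SIRT5F101L. The Control libraries were at least 10178 CPM and no plasmid library exceeded 4263 CPM. Sparc changed by a log2 value of -1.41 (SE 0.06, adjusted p by edgeR 1.05e-13) in WT and -1.48 (SE 0.06, adjusted p = 4.89e-14) in SIRT5F101L, 2.66-fold and 2.78-fold lower.

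Tetranectin is a trimeric C-type lectin that binds plasminogen and is found in mineralising and fibrous matrix. Clec3b (ENSMUSG00000025784) stood at 117, 105, 123 and 115 CPM in Control. In WT it stood at 1.68, 2.18, 2.195 and 2.01 CPM, and in SIRT5F101L at 2.62, 1.82, 2.57 and 2.21 CPM. These are 2012 to 2304 raw counts per library in Control, 34 to 39 in WT and 28 to 64 in SIRT5F101L, so the plasmid levels rest on few counts but stand well above the 3-count floor. Clec3b fell in WT at a log2 value of -5.84 (SE 0.11, adjusted p by edgeR 1.44e-19) and in SIRT5F101L at -5.62 (SE 0.10, adjusted p = 1.65e-19). Of the 14253 genes tested, 13 had a lower fold change than Clec3b in WT and 17 in SIRT5F101L.

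Tenascin-C is a six-armed glycoprotein made at sites of growth, injury and inflammation, and it signals through integrins and Toll-like receptor 4. Tnc (ENSMUSG00000028364) stood at 273, 234, 271 and 322 CPM in Control. It stood at 255, 281, 308 and 275 CPM in WT and at 296, 288, 246 and 272 CPM in SIRT5F101L. All 3 groups overlapped, with both the lowest and the highest library in Control. Its log2 fold change was 0.02 in WT (95% interval -0.17 to 0.22, adjusted p by edgeR 0.828) and 0.00 in SIRT5F101L (-0.19 to 0.19, adjusted p = 0.983). The intervals exclude a fall of the size seen in any of the 7 called genes. In GENCODE M21, 2.265% of its exon bases overlap 8030451A03Rik on the other strand.

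**Figure D3:**
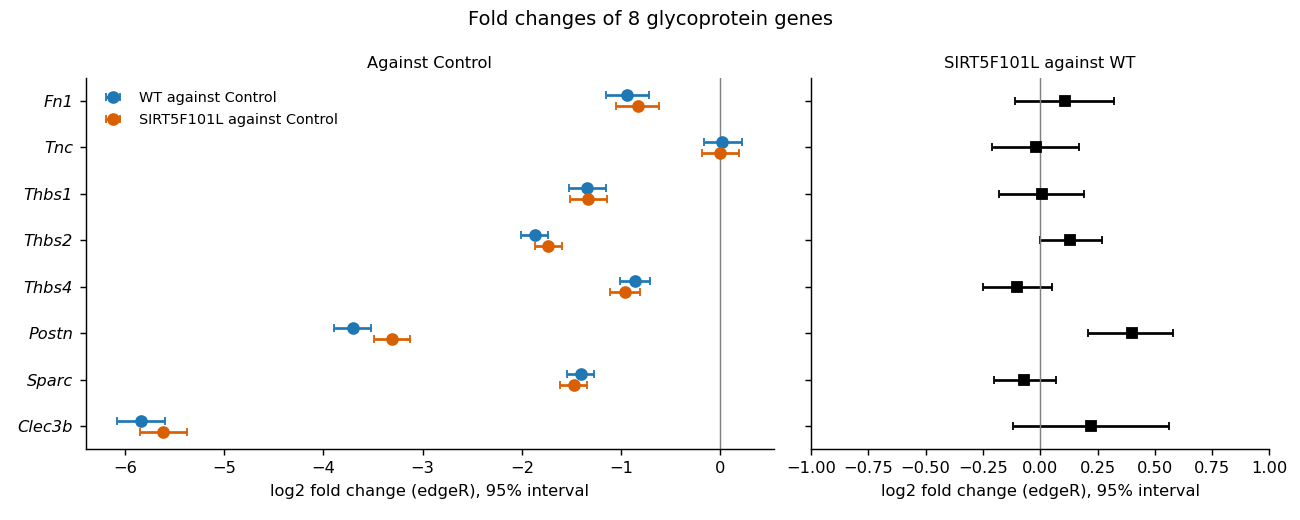
edgeR log2 fold changes of the 8 tested genes with 95% intervals, against Control (left, WT and SIRT5F101L) and between the plasmid groups (right, on a finer axis). Against Control, 7 genes lie left of 0, from -0.83 for Fn1 to -5.84 for Clec3b, and Tnc lies at 0; between the plasmid groups the Postn interval of 0.21 to 0.58 lies furthest from 0.

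Because the falls differed in size, ratios of counts within a library shifted as well. These ratios were chosen after the values were seen and are given without a test. Fn1 to Thbs1 was 2.05, 1.98, 1.99 and 2.12 in Control, 2.68, 2.69, 2.74 and 2.66 in WT, and 2.78, 2.86, 2.91 and 2.97 in SIRT5F101L. The 3 groups did not overlap. The ratio varied between libraries of a group by a coefficient of variation of 3.17%, 1.26% and 2.79%, against 11.2%, 9.39% and 11.6% for the CPM of Fn1 alone, so Fn1 and Thbs1 were high or low in the same libraries. Fn1 to Tnc was 115 to 132 in Control, 57.2 to 74.5 in WT and 54.0 to 78.4 in SIRT5F101L. Thbs1 to Thbs2 was 16.9 to 18.0 in Control, 22.2 to 27.8 in WT and 21.1 to 25.7 in SIRT5F101L. Control stood apart from both plasmid groups in all 3 ratios, and only for Fn1 to Thbs1 did WT and SIRT5F101L separate.

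**Figure D4:**
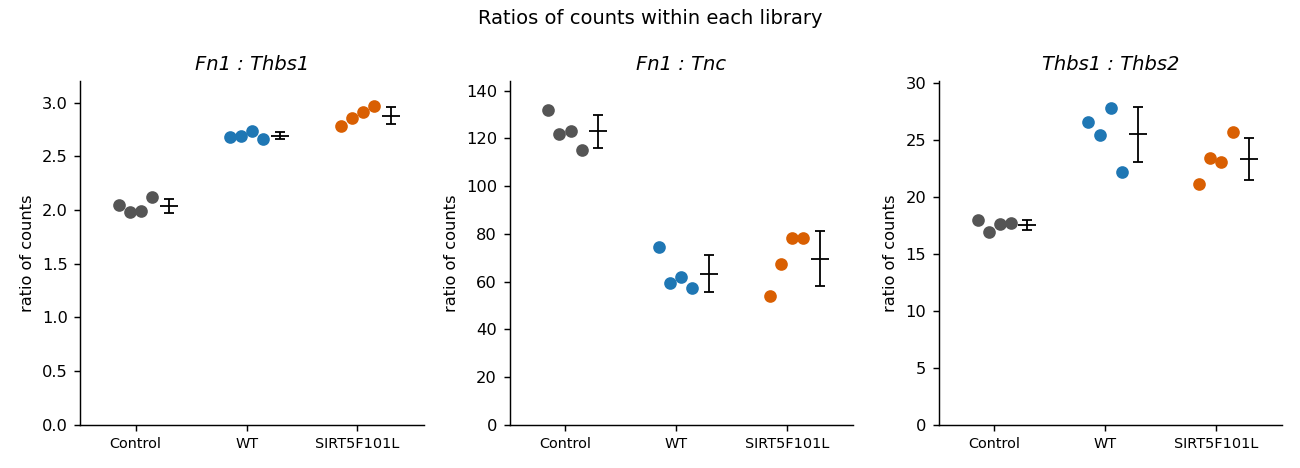
Ratios of raw counts within each library (points) for Fn1 to Thbs1, Fn1 to Tnc and Thbs1 to Thbs2, with the mean and SD of 4 libraries, on axes from 0. The Control libraries (1.98 to 2.12, 115 to 132 and 16.9 to 18.0) do not meet the plasmid libraries in any panel.

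SIRT5F101L and WT were compared directly to ask whether the levels differed between the plasmid groups. None of the 8 genes was called by edgeR, where 0.0421% of all genes (6 of 14253) were called. At an unadjusted p under 0.05 there were 2, Thbs2 and Postn, where 11.9% of all genes reached it, and DESeq2 called 1, Postn. Those 2 were also the genes whose 4 SIRT5F101L libraries all lay above the 4 WT libraries, which held for 1.99% of all genes. Postn was higher in SIRT5F101L by 0.40 on the log2 scale (SE 0.08, 95% interval 0.21 to 0.58), with an edgeR adjusted p of 0.0942 that missed the threshold. It passed without SIRT5F101L replicate 1, at an adjusted p of 0.00116, and over the alternatives its adjusted p ran from 0.000902 to 0.444. Thbs2 differed by 0.13 (95% interval 0.00 to 0.27, adjusted p = 0.394). For Fn1, Thbs1, Thbs4, Sparc and Tnc the 95% intervals together spanned -0.25 to 0.32 on the log2 scale, and for Clec3b the interval was -0.12 to 0.56. The data therefore bound these differences but do not show that the plasmids acted alike.

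Other genes of the same biology were read from 6 lists, beside 7 lists of cell type markers. The lists hold 154 genes outside the set, of which 136 were tested. Of these, 110 were called in WT and 117 in SIRT5F101L. Shares are to be read against the 56.8% and 60.7% of all genes called. By direction, 28.1% were lower and 28.7% higher in WT, and 30.7% lower and 30% higher in SIRT5F101L.

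Among 24 tested matricellular and adhesive glycoproteins outside the set, 9 were higher and 10 lower in WT, and 10 were higher and 10 lower in SIRT5F101L, with a median log2 fold change of -0.05 and -0.07. Osteopontin, Spp1, a phosphoprotein of bone and of stressed chondrocytes, rose from 1937 ± 80.3 CPM to 14554 ± 1403 and 15440.0 ± 1061 CPM (SD, n = 4 each). Comp, the cartilage thrombospondin also known as thrombospondin-5, fell from 2044 ± 234 CPM to 213 ± 10.9 and 189 ± 8.19. The log2 fold change of Comp, -3.26 and -3.44, was larger than that of any thrombospondin of the set. Smoc1, a SPARC relative, changed by -2.54 in WT and -2.57 in SIRT5F101L on the log2 scale, and the basement membrane gene Nid2 by -2.21 and -2.28. The edgeR adjusted p of these 4 genes was at most 4.25e-15 in each comparison. Further genes, named after their values were seen, went both ways. Ccn3 and Ccn5 fell in WT (-2.17 and -2.04), Ccn2, known as connective tissue growth factor, rose by 0.56, and Nid1 rose by 1.02. Of the other tenascins, Tnn rose by 0.66 in WT and 0.97 in SIRT5F101L from a level of 3.59 CPM in Control. Tnr, at 0.189 CPM in Control, rose by 1.67 in SIRT5F101L (edgeR adjusted p = 0.0141) and was not called in WT (0.80, adjusted p = 0.278). Tnr rested on 2 to 7 counts per library in Control, near the 3-count floor, and on 8 to 20 in SIRT5F101L. Over its alternatives the adjusted p in SIRT5F101L ran from 0.00668 to 0.211, and the call was lost without SIRT5F101L replicate 3 and with the length slope as a covariate. Tnxb, at 91.4 CPM in Control, was not called in either, but was called lower in both with the length trend as offset (-0.26 and -0.28).

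Among receptors, more rose than fell. Of 22 tested, 13 were higher and 3 lower in WT, and 14 were higher and 5 lower in SIRT5F101L, with a median log2 fold change of 0.38 and 0.53. Itgb3, the beta subunit of a receptor for fibronectin, thrombospondin and periostin, rose from 8.38 ± 2.10 CPM to 150.3 ± 8.53 in WT and 153 ± 4.85 in SIRT5F101L (edgeR adjusted p = 3.95e-17 and 2.99e-17). Itga3 rose by 1.84 and 1.64 and Itga7 by 1.49 and 1.32, while the proteoglycan Sdc2 fell (-1.39 and -1.35). The receptors that follow were named after their values were seen. The partners that form the best-known fibronectin receptors were higher too. Itgav rose by 1.10 in WT and 1.23 in SIRT5F101L, Itga5 by 0.71 and 0.63, Itgb1 by 0.43 and 0.45, and the co-receptor Sdc4 by 1.01 and 0.96. Tlr4, a tenascin-C receptor, rose by 1.10 and 1.19. The thrombospondin receptor Cd47 rose by 0.34 and 0.45, and Cd36, another, was at 1.43 CPM in Control and was not called. Besides Sdc2, Stab1 (-1.67 and -1.52) and Itga8 (-0.91 and -0.94) fell in both comparisons. Itgb5 and Calr were called lower in SIRT5F101L and not in WT, and the Calr call (-0.19) was lost under 3 alternatives.

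Of the 16 genes of fibronectin assembly and crosslinking, 6 were higher and 9 lower in each comparison, with a median log2 fold change of -0.52 and -0.60. The 6 that rose were the receptors Itga5, Itgb1 and Sdc4, the adhesion protein Tns1, the crosslinker Tgm2 and the TGF-beta binding protein Ltbp1. The crosslinkers Lox and Loxl1 fell, so crosslinking genes went both ways. The collagen genes of the list fell: Col1a1 went from 12698.5 ± 1066 CPM to 3704 ± 315 and 3404 ± 339, and Col1a2 from 14252.5 ± 1272 CPM to 3829 ± 252 and 3583 ± 185. Col5a1 changed by -1.43 in WT and -1.49 in SIRT5F101L on the log2 scale. Fbn2, a fibrillin, changed by -4.22 and -4.03 from 31.1 ± 2.50 CPM in Control. Fbn1, the main fibrillin, also named after its values were seen, was at 349 ± 48.2, 346 ± 22.8 and 390.4 ± 43.9 CPM and was not called. It was called lower in WT with the length trend as offset (-0.19) and higher in SIRT5F101L without SIRT5F101L replicate 1 (0.22).

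TGF-beta induces several of the genes studied here, and latent TGF-beta is stored on fibronectin. Of 17 tested genes of this pathway, 10 were higher and 5 lower in WT, and 11 were higher and 5 lower in SIRT5F101L. The ligand genes were lower: Tgfb2 changed by -2.43 and -2.26 on the log2 scale and Tgfb3 by -1.61 and -1.69. The receptor gene Tgfbr1 rose from 37.9 ± 3.36 CPM to 115 ± 10.8 and 127.5 ± 12.4 CPM, and Skil, a repressor of SMAD activity that TGF-beta itself induces, rose by 1.55 and 1.63. Smad3, which carries the signal to the nucleus, changed by -0.95 and -0.84, beside -0.94 and -0.83 for Fn1. The genes of this list thus did not move in 1 direction.

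Tetranectin and several of the other proteins meet the plasminogen system, which turns plasminogen into the matrix-cleaving enzyme plasmin. Of 9 tested genes, 5 were higher and 2 lower in WT, and 6 were higher and 2 lower in SIRT5F101L. Plau, the urokinase activator, rose from 58.6 ± 3.17 CPM to 222 ± 7.07 and 219 ± 9.02 CPM. Its receptor Plaur rose by 0.93 and 0.71 on the log2 scale. Serpinb2, an inhibitor of the activators, rose by 3.75 and 3.81 from 0.654 ± 0.192 CPM. Plg itself was listed at 0.

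Proteases that cut these glycoproteins were divided. Of 15 tested, 4 were higher and 8 lower in WT, and 5 were higher and 8 lower in SIRT5F101L. Mmp3, stromelysin, rose from 16.3 ± 1.55 CPM to 1534 ± 147 in WT and 1882 ± 163 in SIRT5F101L (log2 fold change 6.55 and 6.85, edgeR adjusted p = 3.28e-20 and 1.90e-20). Mmp13, the main collagenase of osteoarthritic cartilage, rose from 86.4 ± 8.65 CPM to 509 ± 25.1 and 612 ± 38.5 CPM. Mmp14, which acts at the cell surface, fell from 1166 ± 83.1 CPM to 617 ± 19.7 and 585 ± 42.1 CPM, and the lysosomal protease Ctss changed by -1.58 and -1.68 on the log2 scale. Htra1 was listed at 0. Between SIRT5F101L and WT, 1 of the 136 tested list genes was called, the cartilage collagen marker Col11a2, at -0.63 on the log2 scale (SE 0.10, adjusted p by edgeR 0.0339). That call was lost in 10 of the 12 fits that leave out 1 library, all but those without Control replicate 2 and without SIRT5F101L replicate 1, and its adjusted p ran up to 0.167.

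**Figure D5:**
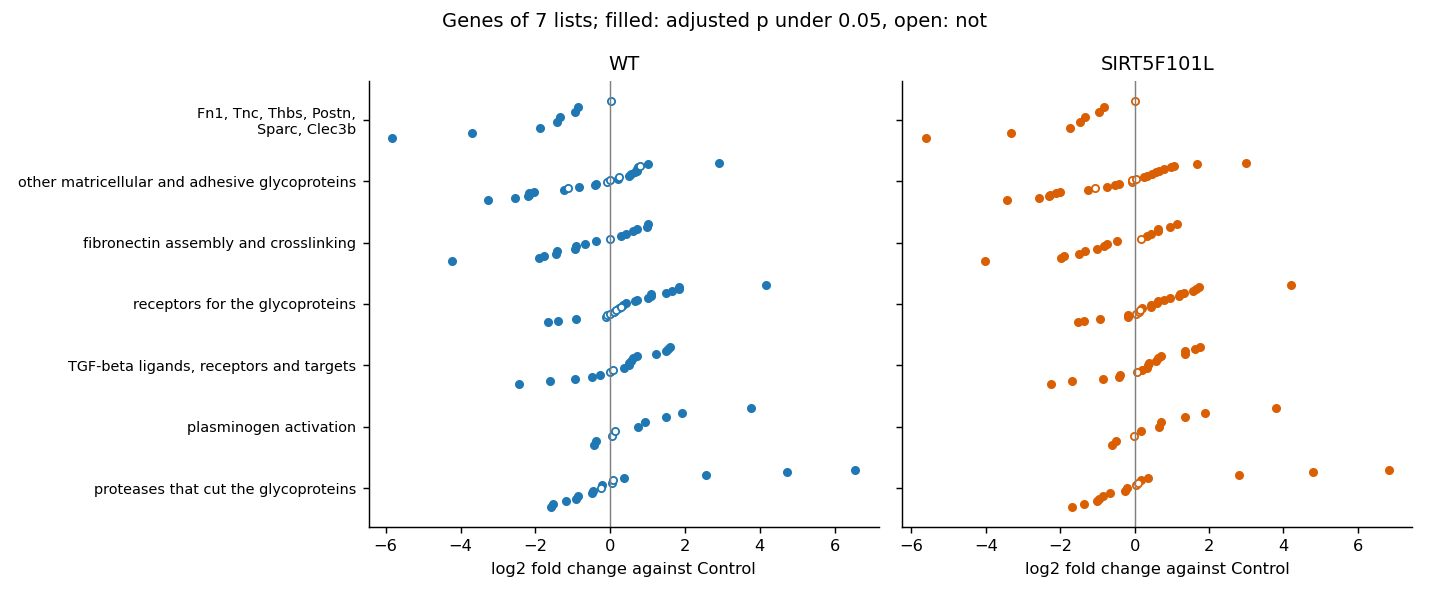
edgeR log2 fold change against Control of each tested gene of the set and of 6 further lists (rows), in WT (left) and SIRT5F101L (right); filled points have an adjusted p under 0.05 and open points do not. The set's called genes all lie left of 0, while each of the other lists has called genes on both sides, from Fbn2 at -4.22 to Mmp3 at 6.55 in WT.

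To see which genes had a similar pattern, log2 CPM centred on each gene's mean was compared over the 12 libraries with that of 9927 genes, by the root mean square (RMS) difference. The difference between Control and the plasmid groups dominates this measure, so likeness here is mostly a like size of fall. Fn1 was nearest to Pdgfrb, a growth factor receptor gene, at an RMS of 0.077 log2 units, then Smad3 and Nfix. Thbs1 was nearest to the cartilage collagen gene Col11a1 at 0.076, then Creb3l1 and Slc24a3. Thbs2 was nearest to Ccdc80 at 0.087, then Lpl and Gas6. Thbs4 was nearest to Pcolce, an enhancer of procollagen processing, at 0.055, then Mmp14 and Arhgef25. Sparc was nearest to Hexa at 0.064, then Steap3 and Copz2, and Tnc to Rnf220 at 0.07, then Terf2 and Il17ra. Postn and Clec3b had no such close match: Postn was nearest to the chemokine gene Cxcl12 at 0.21, then Islr and Tmtc1, and Clec3b to the collagen gene Col8a2 at 0.289, then Cdsn and Hpgd. Within the set, the closest pair was Thbs1 and Sparc at 0.135, and the most distant was Tnc and Clec3b at 2.692.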

How the data were processed

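The authors deposited whole-number counts per Ensembl gene ID, 1 table per library. Per the labels' protocols, poly(A) mRNA was captured, made into libraries with a NEBNext Ultra kit and sequenced as paired-end reads. Per the submitters' processing notes, FastQC 0.11.9, HISAT2 2.2.1, HTSeq 2.0.2 and DESeq2 1.38.3 were named with the builds GRCm39 and mm39. The annotation release and strand setting are not given in the sources used here. Symbols were matched for 52029 of 57010 IDs.

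Counts were scaled by TMM and fitted over all 12 libraries with edgeR 4.0.16 in R 4.3.3, using filterByExpr by group, group means, the quasi-likelihood test (9 residual degrees of freedom) and a Benjamini-Hochberg adjusted p under 0.05, 2-sided, over 14253 genes. The pipeline was tested on simulated data that gave every gene the same dispersion and no length trend between libraries. That test does not cover a library that stands apart, as SIRT5F101L replicate 1 does. CPM values are TMM-scaled. Transcript lengths and exon overlaps came from GENCODE M21 (GRCm38), another build than that of the counts, so the only coordinates given are those of the RefSeq promoter windows (GRCm38.p6). Depth set a floor of 3 counts per library, counting error only.

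The set and the lists were chosen with earlier results of these data known. The rule for other named genes took Sirt5, up to 4 called genes per list with the largest fold change in SIRT5F101L at a mean of at least 5 CPM, any list gene called between plasmids, and the 3 genes with the smallest RMS difference per gene. One gene that this rule takes is not reported here. Alternatives were 2 other scalings (RLE, upper quartile), a filter that only asks for 1 count or for a mean of 1 CPM, DESeq2 1.42.0, fits of 8 libraries, transcript-length corrections (slope covariate, or loess trend with span 0.5 as offset), the median transcript length, and leaving out each library.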

Additional observations from a re-analysis of the deposited data

Results flagged for a closer look

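Of 27 gene and group combinations screened for a library far from the others of its group, 1 was singled out, and chance alone gives about 1.35. Sirt5 stood at 1.23 CPM (19 counts) in SIRT5F101L replicate 2, against 0.481 to 0.602 CPM in the 3 other SIRT5F101L libraries. None of the 8 detected glycoprotein genes had such a library in any group.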

How the results depend on the processing

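The falls of Fn1, Thbs1, Thbs2, Thbs4, Postn, Sparc and Clec3b kept their direction and their call under all 20 alternatives in both comparisons with Control, and Tnc was called in none, with fold changes from -0.10 to 0.11 in WT and -0.20 to 0.08 in SIRT5F101L. Upper-quartile scaling, the largest shift, moved the median log2 fold change of all genes to -0.06.

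Between SIRT5F101L and WT, the genes of the set called went from 0 to 1, each time Postn, without a filter beyond 1 count, with DESeq2 and with the length slope as a covariate, and from 0 to 1 over the fits that leave out 1 library, the 1 being without SIRT5F101L replicate 1. All genes called there went from 6 to 354 without the filter, 44 with DESeq2, 2 with 8 libraries, 25 with the length slope and 20 with the length trend as offset. They ranged from 0 to 2213 over the fits without 1 library. The 2213 came without SIRT5F101L replicate 1, and each of the other 11 such fits gave 0 to 3. The listed genes called went from 1 to 13 (no filter), 8 (DESeq2), 6 (length slope) and 5 (length trend), and from 0 to 29 without 1 library; with 8 libraries the count was unchanged. The cause was not tested.

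With the median transcript length, 4 of 8 genes kept their place in the Control order. Tnxb in SIRT5F101L turned from 0.03 to -0.28 (adjusted p = 0.00405) with the length trend. Of 6234 alternative values over 312 results, 6165 kept direction and call, 21 lost the call, 47 gained it and 1 reversed. No paired analysis was possible because replicate numbers follow accession order and the labels pair no libraries. Depth limits Clec3b in the plasmid groups (28 to 64 counts), Sirt5, Tnr and Thbs3.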
